A study of Mus musculus with 6 samples.

Results

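The hypoxia-inducible factor (HIF) genes examined here are 10 genes that encode the factors, the enzymes that mark them for destruction and 3 of their targets. They were taken by symbol from a table of 22183 genes measured by RNA sequencing in cells sorted as peritoneal endothelial cells (ECs), and each symbol had 1 row. The cells came from wild-type C57BL/6J mice that were injected intraperitoneally every day for 6 weeks with saline (n = 3 mice) or with glucose-based peritoneal dialysis fluid (PD fluid, n = 3 mice), with 1 library per mouse. The question was how transcript levels in the sorted cells of the PD mice differed from those of the saline mice. The labels describe magnetic sorting of CD31+ cells, whereas the study's methods describe sorting of CD31+ CD45- cells by flow cytometry from digested mesentery.

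HIFs are transcription factors made of an oxygen-sensitive alpha subunit, HIF1A (Hif1a) or HIF2A (Epas1), and the stable beta subunit ARNT. In normal oxygen the prolyl hydroxylases PHD2 (Egln1), PHD1 (Egln2) and PHD3 (Egln3) hydroxylate the alpha subunit, which the VHL protein (Vhl) then binds and passes to the proteasome. In low oxygen the alpha subunit persists, pairs with ARNT and binds DNA near target genes such as Bnip3, a mitophagy receptor, Ankrd37, an ankyrin repeat protein, and Adm, the vasodilator peptide adrenomedullin. EPAS1 is abundant in endothelium and HIF1A is broadly expressed, including in myeloid cells. Because this control acts on the alpha protein, transcript levels describe the RNA alone.

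Between 21973426 and 26374292 reads were counted per library, and 14005 genes passed the filter on low counts, all 10 HIF genes among them. Levels are given as CPM, the reads of a gene scaled to a common library size by the TMM method. A gene is called changed when the quasi-likelihood test of edgeR gave it a Benjamini-Hochberg adjusted p under 0.05. By this rule 58.4% of all genes tested were called, 30.5% higher and 27.9% lower in PD mice. The groups did not overlap in 65.6% of all genes tested. The sorted cells carried RNA of several cell types. Of 12 endothelial markers, 11 rose in PD mice, their summed level going from 1145–1159 to 1827–1905 CPM. Pecam1, which encodes CD31, was at 469 ± 19.4 CPM (SD, n = 3) and 514 ± 7.85 CPM (SD, n = 3) without passing edgeR's test (adjusted p = 0.084). The CD45 transcript Ptprc, which marks leukocytes, was at 2373 ± 127 CPM (SD, n = 3) in saline mice and at 1473 ± 63.6 CPM (SD, n = 3) in PD mice (edgeR adjusted p = 2.8e-06). Per transcript length, Ptprc was higher than Pecam1 in both groups, at 624 against 145 FPKM in saline mice and 392 against 158 FPKM in PD mice. All 5 B cell markers fell (summed 5012–5303 to 2358–2390 CPM), as did 4 of 5 T cell markers (1524–1623 to 1095–1240 CPM). All 7 macrophage markers rose (2106–2237 to 8486–9119 CPM), as did the 4 neutrophil markers tested of 5 (13.3–15.5 to 187–201 CPM), 6 of 6 mesothelial markers (13.5–17.2 to 147–172 CPM), 6 of 6 fibroblast markers (86.6–93.0 to 808–836 CPM), 6 of 6 smooth muscle and pericyte markers (272–294 to 422–470 CPM) and 8 of 8 pancreatic acinar markers (2.23–5.81 to 6890–7770 CPM). None of the 3 adipocyte markers tested of 4 was called, and 2 of 5 erythroid markers fell (1316–1515 to 1146–1167 CPM). No marker was at 0 in all libraries. Their part in the HIF gene results was not tested. In bulk RNA, fewer cells of a type and less RNA per cell cannot be told apart.

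The 3 target genes among the 10 are shown first by the DNA just upstream of their RefSeq transcription starts, because HIFs bind the core letters ACGTG or GCGTG there and elsewhere. For Ankrd37 the RefSeq start lies inside the span that GENCODE M21 gives the gene, whose own start is farther upstream. The stretches are from the GRCm38.p6 assembly, are written 5′ to 3′ on the strand of the gene and leave out every base that the annotation places in an exon. Capitals mark each ACGTG or GCGTG on either strand, so that CACGT and CACGC mark the opposite strand. The Adm stretch lies at chr7:110627407-110627656 (plus strand), that of Ankrd37 at chr8:45999868-46000100 (minus strand) and that of Bnip3 at chr7:138909520-138909756 (minus strand).
Adm: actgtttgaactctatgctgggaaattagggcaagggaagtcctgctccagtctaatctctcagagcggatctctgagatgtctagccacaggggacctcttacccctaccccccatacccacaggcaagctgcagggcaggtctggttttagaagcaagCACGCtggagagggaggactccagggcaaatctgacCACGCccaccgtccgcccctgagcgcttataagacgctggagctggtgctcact
Ankrd37: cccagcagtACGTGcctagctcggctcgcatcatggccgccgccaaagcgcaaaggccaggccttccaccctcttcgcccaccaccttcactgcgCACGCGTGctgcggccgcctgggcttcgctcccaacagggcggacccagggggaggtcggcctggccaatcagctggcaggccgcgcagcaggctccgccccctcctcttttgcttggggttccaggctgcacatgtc
Bnip3: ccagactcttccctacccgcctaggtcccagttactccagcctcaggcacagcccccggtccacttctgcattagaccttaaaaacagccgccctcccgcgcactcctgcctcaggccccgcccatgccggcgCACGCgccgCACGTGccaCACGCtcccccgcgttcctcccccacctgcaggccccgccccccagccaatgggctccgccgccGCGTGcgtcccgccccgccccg
The Adm stretch held 2 matches, both on the opposite strand. The Ankrd37 stretch held 3 matches, of which a pair overlaps, and the Bnip3 stretch held 5, of which a pair forms the palindrome CACGTG. Among the 250 bases upstream of all 32851 RefSeq starts, 16.6% held ACGTG, 28.2% held GCGTG and 38.6% held either. Of the 10 windows that matched the 10 genes, a pair for Egln2 and none for Epas1, 60% held ACGTG, 70% held GCGTG and 90% held either. The window of Vhl had 0 matches. The median GC content was 60.6% in these windows and 52.4% in all. The targets carry the letters whether their transcript rose (Adm), fell (Ankrd37) or was not called (Bnip3), as described next.

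Of the 10 HIF genes, 3 rose (Hif1a, Epas1, Adm), 1 fell (Ankrd37) and 6 were not called, with a median log2 fold change of 0.21 against 0.02 for all genes tested. In 7 of the 10 the ranges of the groups were apart. These shares, 4 of 10 called and 7 of 10 without overlap, stand beside the 58.4% and 65.6% of all genes tested. All directions are relative to the genes tested as a whole. With the libraries scaled to the 12 endothelial markers instead, which lowers the median of all genes by 0.97 on the log2 scale and leaves 10.4% of calls higher, 7 of the 10 genes were called lower and 0 higher.

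**Figure D1:**
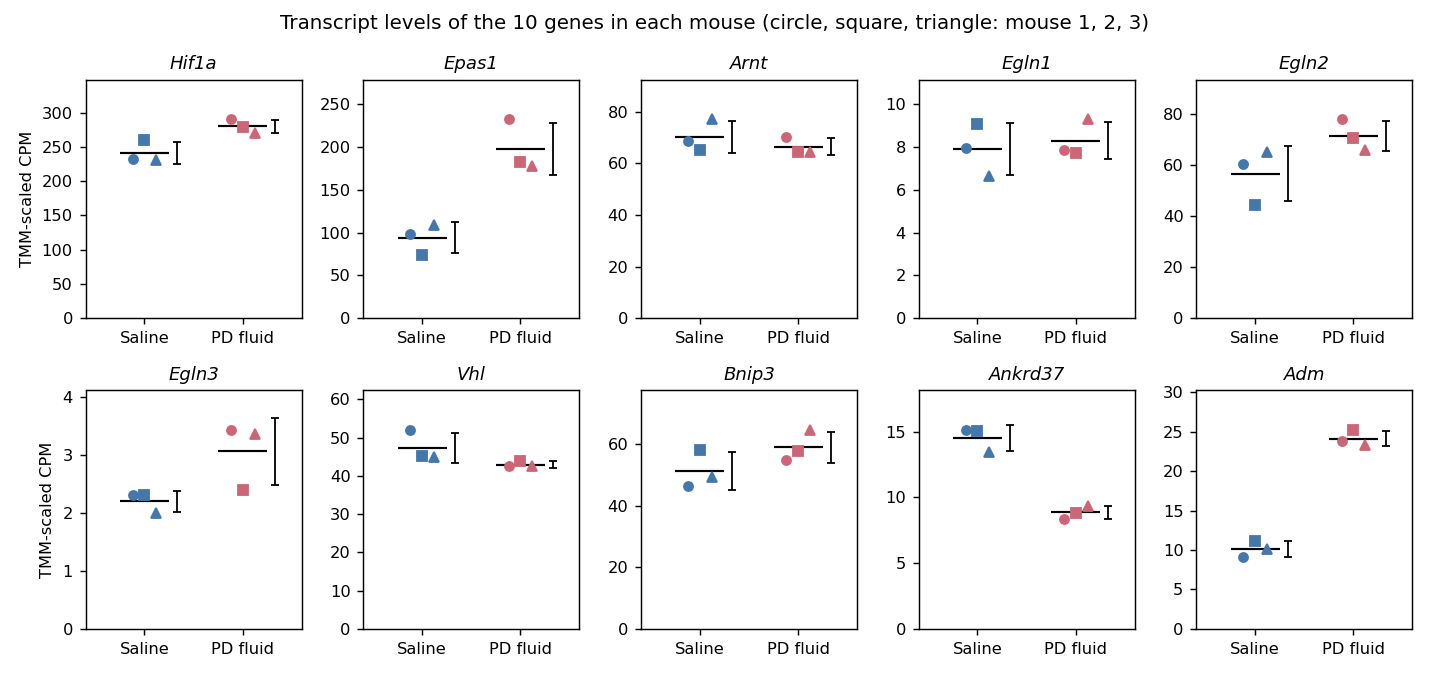
Level of each of the 10 genes in each mouse in TMM-scaled CPM (vertical axis from 0), with saline mice in blue and PD mice in red; horizontal lines are group means and bars beside them the SD (n = 3). Epas1 and Adm of the PD mice lie above all saline mice and Ankrd37 lies below them, while Arnt, Egln1 and Bnip3 overlap.

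Hif1a (ENSMUSG00000021109, chr12:73901375-73947530 on the plus strand of GRCm38) had the highest level of the 10 genes per transcript length and moved little. It was at 232, 259.9 and 231 CPM in saline mice 1, 2 and 3 and at 289.8, 279 and 270.2 CPM in PD mice 1, 2 and 3. The PD mice all lay above the saline mice, with the highest saline mouse close below the lowest PD mouse. The means were 241 ± 16.4 CPM (SD, n = 3) and 279.6 ± 9.83 CPM (SD, n = 3), a log2 fold change of 0.22 (SE 0.07, edgeR adjusted p = 0.015), or 1.16-fold. The call was lost without saline mouse 1 (edgeR adjusted p = 0.070) or saline mouse 3 (edgeR adjusted p = 0.060), and the sign turned under endothelial scaling (−0.76).

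Epas1 (ENSMUSG00000024140, chr17:86753700-86833410, plus strand) changed more. It was at 98.6, 73.8 and 109 CPM in saline mice and at 232, 182 and 178 CPM in PD mice. The groups were far apart, with saline mouse 2 the lowest and PD mouse 1 the highest. Epas1 rose from 93.8 ± 18.1 CPM (SD, n = 3) to 197 ± 30.2 CPM (SD, n = 3), a log2 fold change of 1.07 (SE 0.17, edgeR adjusted p = 0.0016), or 2.10-fold, with the call kept without any 1 mouse. The 12 endothelial markers changed by 0.13 to 1.65 on the log2 scale, with a median of 0.96. Under endothelial scaling the log2 fold change of Epas1 was 0.10 (edgeR adjusted p = 0.42). The part of endothelial content in the rise of Epas1 was not tested.

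Within each mouse, reads on Epas1 were 0.425, 0.284 and 0.471 times those on Hif1a in the saline group and 0.801, 0.653 and 0.658 times in the PD group. Every PD mouse had a higher ratio than every saline mouse. The ratio was 1.82 times higher in the PD group (log2 difference 0.86, two-sided exact permutation p = 0.1, adjusted p = 0.114 over 8 ratios). A design of 3 mice against 3 allows no smaller p than 0.1. Ratios between genes do not depend on how the libraries are scaled. They can still depend on the mix of cells, in which endothelial (median log2 fold change 0.96) and macrophage (2.04) markers rose and B cell (−1.17) markers fell. The part of the cell mix in the ratio of Epas1 to Hif1a was not tested.

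The beta subunit Arnt (ENSMUSG00000015522) was not called. It was at 68.5, 65.2 and 77.0 CPM in saline mice and at 70.4, 64.5 and 64.4 CPM in PD mice, and the groups overlapped. The log2 fold change was −0.08 (SE 0.08, 95% interval −0.24 to 0.08, edgeR adjusted p = 0.42). Under endothelial scaling Arnt was called lower, at −1.05.

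None of the 3 prolyl hydroxylase genes was called. Egln1 (ENSMUSG00000031987), the main oxygen sensor of the family in most cells, was at 7.97, 9.08 and 6.67 CPM in saline mice and at 7.87, 7.72 and 9.29 CPM in PD mice. These ranges overlapped, and the log2 fold change was 0.07 (SE 0.16, 95% interval −0.25 to 0.39, edgeR adjusted p = 0.73).

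Egln2 (ENSMUSG00000058709) was at 60.4, 44.3 and 65.0 CPM in saline mice and at 77.7, 70.4 and 65.9 CPM in PD mice. The groups did not overlap, but the lowest PD mouse was close to the highest saline mouse. The log2 fold change of 0.33 (SE 0.13, edgeR adjusted p = 0.054) stood just outside the threshold. It passed with DESeq2's size factors in edgeR (adjusted p = 0.042), with no filter on low counts (edgeR adjusted p = 0.033), in DESeq2 (adjusted p = 0.018), in limma-voom (adjusted p = 0.045), without the acinar genes (edgeR adjusted p = 0.034) and without saline mouse 3 (edgeR adjusted p = 0.016). Egln2 did not pass with total counts and no TMM (edgeR adjusted p = 0.087), nor without saline mouse 1 (0.074) or saline mouse 2 (0.083). The same held without PD mouse 1 (edgeR adjusted p = 0.18), PD mouse 2 (0.11) or PD mouse 3 (0.074). Without saline mouse 2 the log2 fold change was 0.19, and under endothelial scaling the value turned to −0.63.

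Egln3 (ENSMUSG00000035105), itself a HIF-induced gene, had the lowest level of the 10 per transcript length, with 48 to 59 reads in each saline mouse and 57 to 93 in each PD mouse. It was at 2.30, 2.31 and 1.99 CPM in saline mice and at 3.42, 2.39 and 3.35 CPM in PD mice. PD mouse 2 lay just above the saline mice and the other PD mice stood higher. The log2 fold change was 0.47 (SE 0.24, 95% interval −0.002 to 0.95, edgeR adjusted p = 0.11), so that no difference was detectable at this depth. Egln3 reads were 0.289, 0.254 and 0.298 times those of Egln1 in saline mice and 0.435, 0.310 and 0.361 times in PD mice, without overlap (log2 difference 0.38, two-sided exact permutation p = 0.1). The ratio of Egln1 to Egln2 overlapped between the groups (log2 difference −0.28, two-sided exact permutation p = 0.6).

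Vhl (ENSMUSG00000033933) was at 51.9, 45.2 and 44.9 CPM in saline mice and at 42.5, 43.9 and 42.5 CPM in PD mice. All PD mice lay below all saline mice, by a small margin. The log2 fold change was −0.14 (SE 0.08, 95% interval −0.31 to 0.02, edgeR adjusted p = 0.16). Under endothelial scaling Vhl was called lower, at −1.11.

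The 3 target genes went different ways. Adm (ENSMUSG00000030790, chr7:110627661-110629820, plus strand) was at 9.18, 11.2 and 10.1 CPM in saline mice and at 23.8, 25.2 and 23.4 CPM in PD mice. The mice within each group were close to each other and the groups stood far apart. Adm rose 2.38-fold, from 10.2 ± 1.02 CPM (SD, n = 3) to 24.1 ± 0.960 CPM (SD, n = 3), the largest change among the 10 genes in this fit (log2 fold change 1.25, SE 0.12, edgeR adjusted p = 1.3e-06). Under endothelial scaling it was at 0.28 (edgeR adjusted p = 0.060). Markers of macrophages (median 2.04), mesothelium (3.61), fibroblasts (3.29) and smooth muscle and pericytes (1.48) rose too. Those of B cells (−1.17) and T cells (−0.33) fell. The part of the cell mix in the rise of Adm was not tested. The spans of annotated antisense genes without a row of counts, introns included, cover the spans of Adm and Hif1a and 3712 bases of Bnip3. On the same strand, Gm49321 shares 9878 bases of the Hif1a span and had 2 reads over all libraries. Whether the exons overlap was not examined. The labels do not name a stranded protocol, so antisense reads on shared exons could not be told apart from those of these genes.

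Ankrd37 (ENSMUSG00000050914, chr8:45996902-46005707, minus strand) was the only one of the 10 that fell. It was at 15.1, 15.0 and 13.4 CPM in saline mice and at 8.39, 8.85 and 9.38 CPM in PD mice. Each PD mouse was below each saline mouse. The means of 14.5 ± 0.958 CPM (SD, n = 3) and 8.87 ± 0.496 CPM (SD, n = 3) gave a log2 fold change of −0.71 (SE 0.13, edgeR adjusted p = 0.00038), and −1.68 under endothelial scaling. Ptprc (−0.69) and the markers of B cells (median −1.17) and T cells (−0.33) fell too, while endothelial (0.96) and macrophage (2.04) markers rose. The part of the cell mix in the fall of Ankrd37 was not tested. Ankrd37 lies across 6405 bases of Lrp2bp on the other strand, which had 38 reads over all libraries, and shares 57 bases with Ufsp2, also on the other strand, which had 5477 reads against 1683 for Ankrd37.

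Bnip3 (ENSMUSG00000078566, chr7:138890836-138909519, minus strand) was at 46.4, 58.1 and 49.2 CPM in saline mice and at 54.7, 57.7 and 64.5 CPM in PD mice. Saline mouse 2 was higher than all but the highest PD mouse. The log2 fold change was 0.20 (SE 0.10, edgeR adjusted p = 0.087). Without saline mouse 2 it was 0.30 and passed (edgeR adjusted p = 0.0085), and under endothelial scaling it was −0.77. Relative to its paralog Bnip3l, also a mitophagy receptor and HIF target, Bnip3 had 0.257, 0.287 and 0.260 times the reads in saline mice and 0.362, 0.373 and 0.366 times in PD mice. These ranges were narrow and did not overlap (log2 difference 0.46, two-sided exact permutation p = 0.1, adjusted p = 0.114 over 8 ratios).

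**Figure D2:**
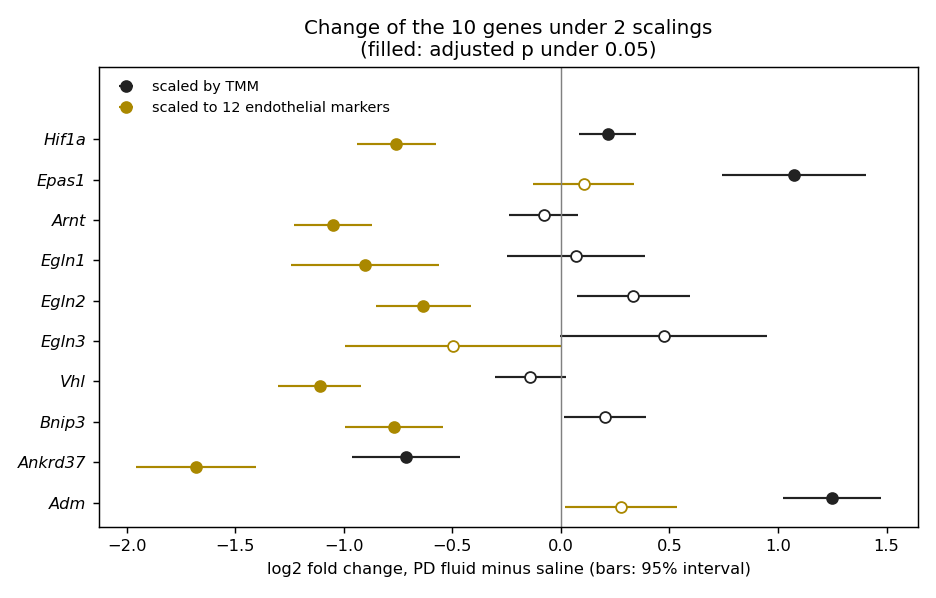
Log2 fold change of PD mice against saline mice for the 10 genes (horizontal axis, bars are 95% intervals), with libraries scaled by TMM in black and to 12 endothelial markers in yellow; filled points had an adjusted p under 0.05 in edgeR. Under endothelial scaling every point moves left by about the same amount, Epas1 and Adm are no longer called, and Hif1a, Egln1, Egln2, Egln3 and Bnip3 change sign. The intervals are normal approximations, narrower than edgeR's test implies, so a bar can exclude 0 for a gene that was not called.

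Compared per transcript length in FPKM, Hif1a had the highest level of the 10 in both groups, at 52.1 ± 2.94 FPKM (SD, n = 3) in saline mice and 61.0 ± 3.88 FPKM (SD, n = 3) in PD mice. In saline mice it was followed by Bnip3 (29.3), Egln2 (26.8), Arnt (20.7), Vhl (17.9), Epas1 (17.0), Ankrd37 (15.7), Adm (7.28), Egln1 (2.19) and Egln3 (0.823 FPKM). The values of Bnip3 and Egln2, Egln2 and Arnt, Vhl and Epas1, and Epas1 and Ankrd37 overlapped between neighbours. In PD mice the order was Hif1a, Epas1 (36.0 ± 6.44 FPKM), Egln2 (34.1), Bnip3 (33.8), Arnt (19.5), Adm (17.4), Vhl (15.8), Ankrd37 (9.68), Egln1 (2.31) and Egln3 (1.152 FPKM). There, Epas1 and Egln2, Egln2 and Bnip3, and Adm and Vhl overlapped. Epas1 thus stood in place 6 in saline mice and in place 2 in PD mice. Egln1 stayed below Egln2 and above Egln3 in both groups, without overlap.

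**Figure D3:**
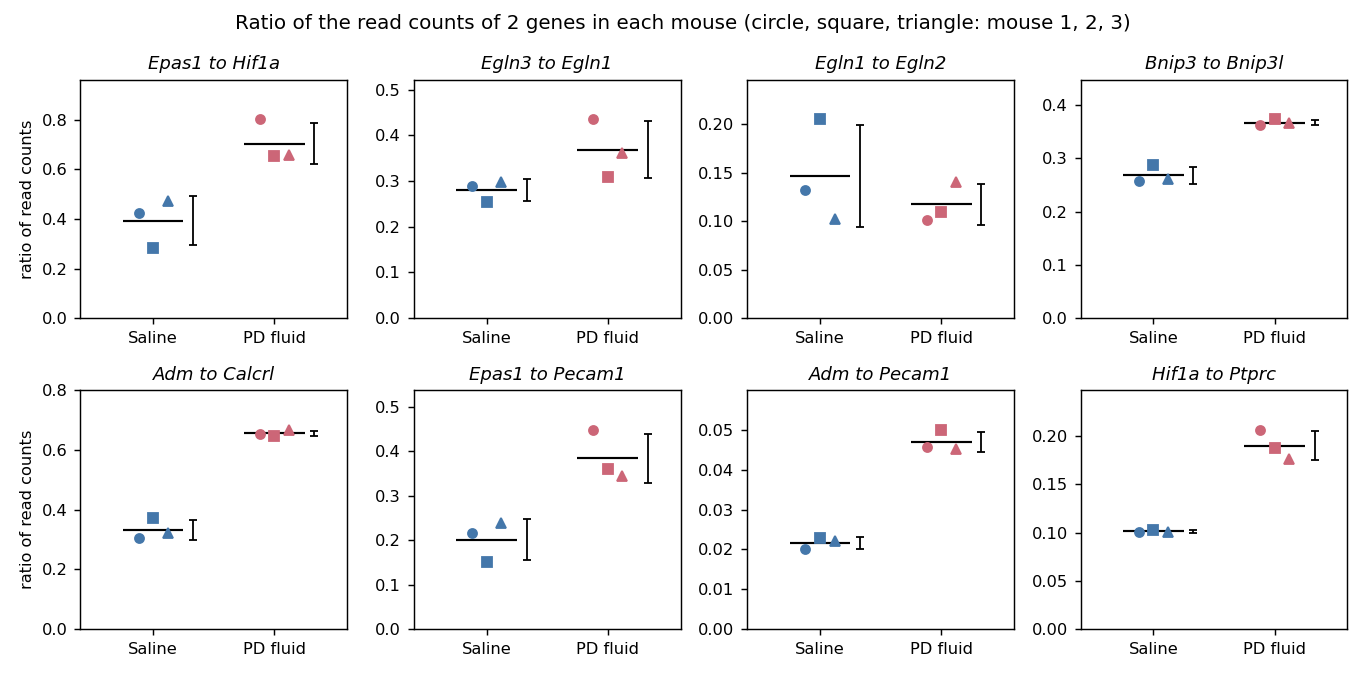
Ratio of the read counts of a pair of genes within each mouse (vertical axis from 0), with saline mice in blue and PD mice in red; lines are group means and bars the SD (n = 3). In 7 of the 8 pairs every PD mouse lies above every saline mouse, and Egln1 to Egln2 overlaps. Several pairs share a gene, and 65.6% of all single genes tested did not overlap between the groups. With other endothelial markers in place of Pecam1, Epas1 is lower in every PD mouse for 2 of 12.

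Epas1, Adm and Hif1a were also set against marker transcripts within each mouse. Epas1 had 0.215, 0.150 and 0.238 times the reads of Pecam1 in saline mice and 0.448, 0.361 and 0.344 times in PD mice (log2 difference 0.95). Adm had 0.0200, 0.0228 and 0.0221 times the reads of Pecam1 in saline mice and 0.0458, 0.04996 and 0.0452 times in PD mice (log2 difference 1.12). Both ratios to Pecam1 were higher in every PD mouse, but Pecam1 changed the least of the 12 endothelial markers and the direction depended on the marker. Against each of the 12 in turn, Epas1 was higher in every PD mouse for 3, lower in every PD mouse for 2 (Tie1 and Vwf) and overlapping for 7, with log2 differences from −0.60 to 0.95 and a median of 0.12. Adm was higher in every PD mouse for 8 and overlapping for 4, with log2 differences from −0.43 to 1.12 and a median of 0.29. Hif1a had 0.101, 0.103 and 0.1003 times the reads of Ptprc in saline mice and 0.206, 0.188 and 0.177 times in PD mice (log2 difference 0.90), while Ptprc itself fell. This does not hold for all leukocyte markers, since macrophage markers rose more than Hif1a (median log2 fold change 2.04 against 0.22). Ratios of Hif1a to other leukocyte markers were not taken. Each of the differences from Pecam1 and Ptprc had a two-sided exact permutation p = 0.1.

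Other genes of the pathway were taken from 4 lists with 53 genes, of which 50 were tested. In PD mice 23 rose and 12 fell, 15 were not called, and the median change was 0.23 on the log2 scale. The groups did not overlap in 38 of the 50. Over all genes tested, 30.5% rose, 27.9% fell and 65.6% did not overlap. Under endothelial scaling 5 were called higher and 35 lower.

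The first list held 13 other subunits, cofactors and parts of the sensing machinery, of which 12 were tested. Of these, 3 rose and 6 fell, with a median log2 fold change of −0.18, while 30.5% of all genes tested rose and 27.9% fell. The 4 partners with which VHL forms its ubiquitin ligase were all called lower, beside 27.9% of all genes tested. Cul2 was named among them only after its values were seen. Rbx1, the RING subunit, was at 197 ± 11.9 CPM (SD, n = 3) in saline mice and 149 ± 11.6 CPM (SD, n = 3) in PD mice (log2 fold change −0.40, edgeR adjusted p = 0.00051). The elongins Eloc (−0.31) and Elob (−0.29) changed less, and the call of Elob was lost without saline mouse 1 (edgeR adjusted p = 0.054) or PD mouse 1 (edgeR adjusted p = 0.055). The scaffold Cul2 (−0.19, edgeR adjusted p = 0.047) stood just inside the threshold, and its call was lost without saline mouse 2 (edgeR adjusted p = 0.15), saline mouse 3 (0.059) or any of PD mice 1 (0.13), 2 (0.068) and 3 (0.089), with no filter on low counts (0.051) and without the acinar genes (0.064). Crebbp, a histone acetyltransferase that acts as a HIF coactivator, fell by 0.57 on the log2 scale, while the related Ep300 was at −0.16 and not called.

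Cited2, which competes with HIF1A for these coactivators and is itself HIF-induced, rose from 85.1 ± 4.76 CPM (SD, n = 3) to 117 ± 4.78 CPM (SD, n = 3), a log2 fold change of 0.46 (edgeR adjusted p = 0.00012). Siah2, a ubiquitin ligase that targets prolyl hydroxylases, rose by 0.27, but was not called without saline mouse 2 (edgeR adjusted p = 0.052) or PD mouse 1 (edgeR adjusted p = 0.053). Its relative Siah1a fell (−0.28). Both rises turned under endothelial scaling, Cited2 to −0.51 and Siah2 to −0.69. Arnt2, an ARNT paralog, rose by 1.90 on the log2 scale (SE 0.41), from 6 to 12 reads per saline mouse to 26 to 41 per PD mouse, while its FPKM values overlapped between the groups (0.179–0.228 and 0.199–0.378). Hif1an, which encodes the asparaginyl hydroxylase FIH, was at −0.03 (edgeR adjusted p = 0.78). Hif3a, with 28 reads in all libraries together, was not tested.

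**Figure D4:**
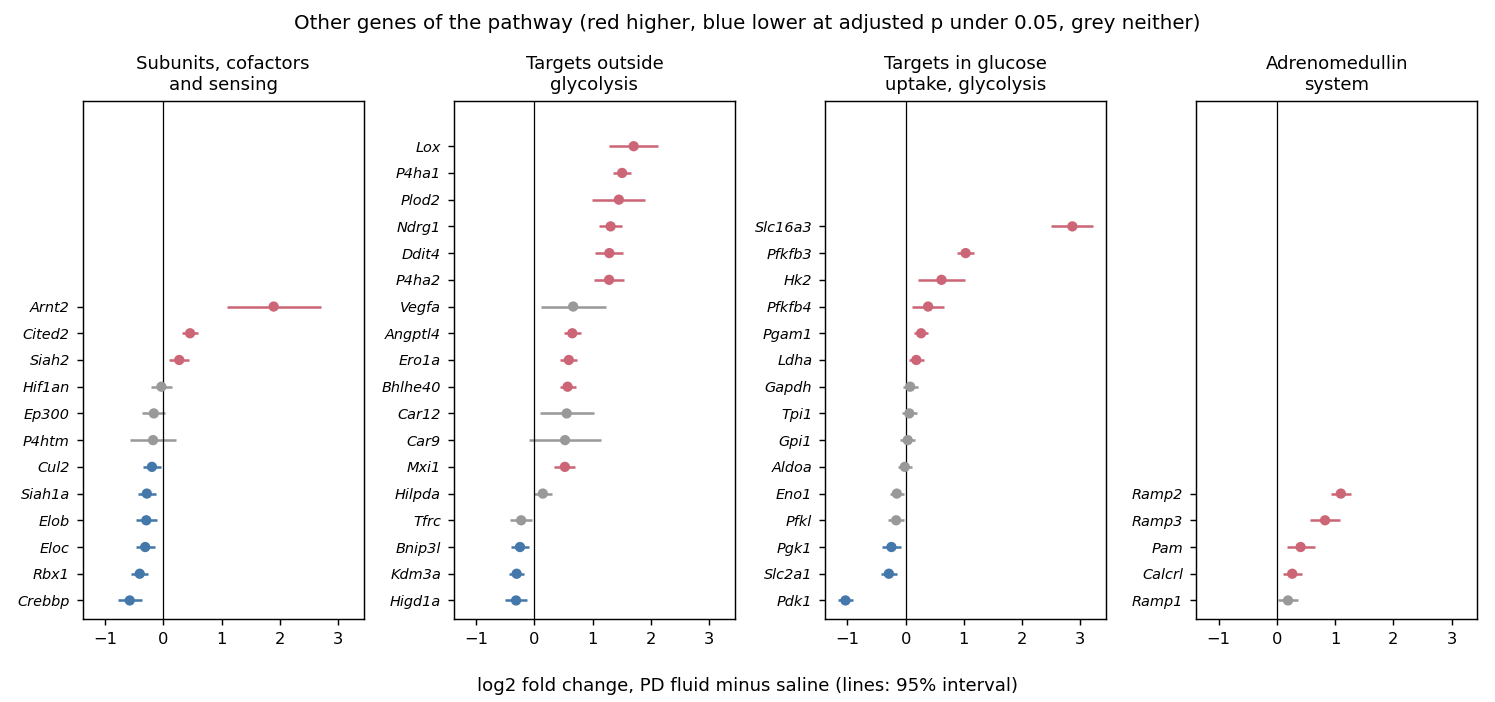
Log2 fold change of PD mice against saline mice (horizontal axis, lines are 95% intervals) for the 50 other pathway genes tested, in 4 lists and with TMM scaling; red genes were higher and blue genes lower at an adjusted p under 0.05 in edgeR, and grey genes were neither. Targets outside glycolysis hold 10 red and 3 blue genes, glycolysis 6 and 3, the adrenomedullin system 4 and 0, and the machinery 3 and 6. Over all genes tested, 30.5% were higher and 27.9% lower. Under endothelial scaling 5 of the genes shown were called higher. The intervals are normal approximations, narrower than edgeR's test implies, so a line can exclude 0 for a grey gene.

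Of 19 HIF target genes outside glycolysis, 18 were tested. Beside 30.5% higher and 27.9% lower over all genes tested, 10 rose and 3 fell, with a median log2 fold change of 0.58. Among the risers were genes of collagen formation. P4ha1, a collagen prolyl 4-hydroxylase subunit, was at 33.7, 32.1 and 31.6 CPM in saline mice and at 88.5, 99.1 and 88.5 CPM in PD mice (2.84-fold, edgeR adjusted p = 4.2e-09). Lox, which crosslinks collagen and elastin, rose by 1.70 (edgeR adjusted p = 2.1e-05), and Plod2, a collagen lysyl hydroxylase, rose by 1.45 (edgeR adjusted p = 0.00017). Fibroblast markers rose with them, with a median of 3.29. Under endothelial scaling P4ha1 (0.54) and Lox (0.73) were still called higher, whereas Plod2 (0.48, edgeR adjusted p = 0.090) was not.

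Ndrg1, a stress-responsive differentiation gene, was at 47.7, 43.2 and 41.9 CPM in saline mice and at 124, 111 and 93.6 CPM in PD mice, far apart (log2 fold change 1.31, SE 0.10, edgeR adjusted p = 3.0e-07), and was still called higher under endothelial scaling (0.33). Macrophage (median 2.04) and fibroblast (3.29) markers rose more, and B cell (−1.17) and T cell (−0.33) markers fell. Their part in the change of Ndrg1 was not tested. Kdm3a, a histone demethylase, fell (−0.31), as did Higd1a (−0.32), a mitochondrial protein of hypoxia survival, and Bnip3l (−0.25). Higd1a was not called without PD mouse 1 (edgeR adjusted p = 0.051) or PD mouse 2 (edgeR adjusted p = 0.059), and Bnip3l was not called without PD mouse 2 (edgeR adjusted p = 0.077). Hilpda, a lipid droplet protein, was at 0.14 (edgeR adjusted p = 0.12) and Tfrc, the transferrin receptor, at −0.23 (edgeR adjusted p = 0.059). Epo, the classical EPAS1 target of the kidney, had 0 reads in every library.

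The 15 target genes of glucose uptake and glycolysis split, with 6 higher, 3 lower and 6 not called and a median log2 fold change of 0.06. Among all genes tested, 30.5% were higher and 27.9% lower. Slc16a3, the lactate exporter MCT4, was at 2.03, 2.21 and 1.45 CPM in saline mice and at 15.0, 13.3 and 12.96 CPM in PD mice. The rise of 2.86 on the log2 scale (SE 0.18, edgeR adjusted p = 3.7e-08) was still called under endothelial scaling (1.89). Markers of macrophages (median 2.04), neutrophils (4.29), mesothelium (3.61) and fibroblasts (3.29) rose too, and those of B cells (−1.17) and T cells (−0.33) fell. Their part in the change of Slc16a3 was not tested. Pfkfb3, which makes the allosteric activator of phosphofructokinase, rose by 1.03 (edgeR adjusted p = 1.2e-07) and was at 0.06 under endothelial scaling.

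Hk2, a hexokinase, rose by 0.62 but lost the call without saline mouse 1 (edgeR adjusted p = 0.061), PD mouse 2 (edgeR adjusted p = 0.084) or PD mouse 3 (edgeR adjusted p = 0.051). Hk2 and Pgam1 (0.27) turned under endothelial scaling, to −0.35 and −0.70. Pdk1, a kinase that restrains pyruvate entry into mitochondria, was at 193, 215 and 202 CPM in saline mice and at 95.3, 99.2 and 104 CPM in PD mice, and fell by 1.03 (edgeR adjusted p = 4.7e-08). The glucose transporter Slc2a1 (−0.29) and the glycolytic enzyme Pgk1 (−0.24) also fell, the latter not called without PD mouse 1 (edgeR adjusted p = 0.077). Markers of B cells (median −1.17) and T cells (−0.33) and Ptprc (−0.69) fell too, while endothelial (0.96) and macrophage (2.04) markers rose. The part of the cell mix in the falls of Pdk1, Slc2a1 and Pgk1 was not tested. Aldoa (−0.01) and Gpi1 (0.04) were the least changed.

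The peptide encoded by Adm acts through the receptor CALCRL, whose ligand choice is set by the accessory proteins RAMP1, RAMP2 and RAMP3, and is amidated by the enzyme PAM. Of these 5 genes tested, 4 rose, with a median log2 fold change of 0.41, while 30.5% of all genes tested rose. Ramp2, which with CALCRL forms an adrenomedullin receptor, was at 23.2, 23.7 and 23.1 CPM in saline mice and at 55.0, 47.7 and 47.1 CPM in PD mice (log2 fold change 1.10, edgeR adjusted p = 4.0e-07). Ramp3 rose by 0.83 (edgeR adjusted p = 0.00014), Pam by 0.41 and Calcrl by 0.26, and Ramp1, which with CALCRL forms the CGRP receptor, was at 0.19 (edgeR adjusted p = 0.076). Pam was not called without PD mouse 3 (edgeR adjusted p = 0.059), nor Calcrl without saline mouse 1 (edgeR adjusted p = 0.055) or PD mouse 2 (edgeR adjusted p = 0.080). Under endothelial scaling Ramp2 was at 0.13 without a call, and Ramp3 (−0.14), Pam (−0.56), Calcrl (−0.71) and Ramp1 (−0.78) turned. Adm had 0.304, 0.370 and 0.322 times the reads of Calcrl in saline mice and 0.653, 0.648 and 0.667 times in PD mice, higher in every PD mouse (log2 difference 0.99, two-sided exact permutation p = 0.1). The second ligand gene Adm2 had 1 read in all libraries together.

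Across the 6 libraries and 9385 genes with a mean of at least 10 CPM, the genes whose levels ran most like Hif1a were Dusp16 (Pearson r = 0.993), Hspa13 (0.984) and Tpcn1 (0.984). Those most like Epas1 were Mapk14, Plod3 and Il12rb1, with r = 0.999 for each. These values describe 6 libraries that share the group difference and the same scaling.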

How the data were processed

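RNA was sequenced from cells sorted as peritoneal ECs of 6 mice, grouped by the treatment in the labels. The authors deposited unnormalized read counts per gene, which were used for all tests, and FPKM values per mouse, which were used only to compare levels between genes. Their group means of FPKM, log2 ratio, p-value and FDR were not used. The submitters' processing notes name fastp 0.18.0, Bowtie2 2.2.8, HISAT2, StringTie 1.3.1 and RSEM. The genome build and annotation are not given in the sources used here, so positions are from GENCODE M21 on GRCm38, in which 22128 of 22183 identifiers were found. Reads shared with copies or overlapping genes may have been split by the counting. Where 13 genes lacked a symbol, they stayed in the fit.

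The 10 genes and all lists were chosen with earlier results of these data known. Counts were filtered with filterByExpr, scaled by TMM and tested with the quasi-likelihood test of edgeR 4.0.16 (R 4.3.3), with Benjamini-Hochberg adjustment over 14005 genes and a threshold of 0.05; the study's methods name limma. Standard errors come from the F statistic. The 95% intervals are the standard errors times the normal quantile, so they are narrower than edgeR's test implies. Bnip3, for instance, had an interval of 0.01 to 0.39 beside an unadjusted edgeR p of 0.056. The pipeline was tested on simulated counts in which few genes changed, in equal numbers up and down. Far more genes were called in these data, so that test does not check their scaling or calls. For ratios of counts, exact permutation tests (two-sided) were adjusted over 8 pairs. Within each pathway list the named genes are up to 4 of the largest rises and falls that were called without overlap at 10 counts or more on average, and up to 2 of the smallest changes. Siah1a, Cul2, Hif3a, Epo and Adm2 were named outside this rule, after their values were seen. A pathway gene is not reported here and was left out of the lists. Likeness used log2(CPM + 1). Alternatives were DESeq2 1.42.0, limma-voom (limma 3.58.1), other scalings, no filter, a replicate block, leaving out each mouse and leaving out 14 acinar and amylase genes. Ratios of Epas1 and Adm to all 12 endothelial markers were added after seeing the data. Replicates differed beyond sampling noise: chi-square per gene between mice of a group was 6.35 to 18.0. The labels share replicate numbers, but same-numbered mice did not deviate together. The number of columns not matched to a sample was 0. The edgeR p-values weigh the group difference against the spread between 3 mice per group, moderated over genes. Those of the ratios come from regrouping the mice and cannot fall under 0.1.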

Additional observations from a re-analysis of the deposited data

How the results depend on the processing

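Scaling to the 12 endothelial markers was the alternative that moved the results. It gave 1173 genes higher and 10062 lower, 7 of the 10 HIF genes called (0 higher, 7 lower), and 5 pathway genes higher and 35 lower. It reversed Hif1a (−0.76), Egln1 (−0.90), Egln2 (−0.63), Egln3 (−0.49), Bnip3 (−0.77), Cited2 (−0.51), Siah2 (−0.69), Hilpda (−0.83), Hk2 (−0.35), Pgam1 (−0.70), Gpi1 (−0.94), Ramp3 (−0.14), Pam (−0.56), Calcrl (−0.71), Ramp1 (−0.78) and Pecam1 (−0.84, log2 fold change). This follows from its construction, since the markers rose. With the median over the 12 endothelial markers in place of Pecam1, chosen after seeing the data, the log2 difference of the ratio was 0.12 for Epas1 and 0.29 for Adm. Under the other alternatives with all mice, 7887 to 8362 genes and 4 or 5 of the HIF genes were called, the fifth being Egln2. With each mouse left out, 6971 to 7972 genes and 3 to 5 of the HIF genes were called. The log2 fold changes near 0 then crossed it for Egln1 (−0.044 to 0.18), Hif1an (−0.11 to 0.019), Aldoa (−0.033 to 0.0019) and Gpi1 (−0.0034 to 0.082). Over all alternatives and named genes, 573 log2 fold changes kept their direction and side of the threshold, 29 lost the call, 18 gained it and 24 reversed.

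The replicate numbers did not pair the mice (correlations of deviations 0.19, 0.07 and −0.27), and not every mouse correlated best with its own number. With the number as a replicate block, 7887 genes and 5 of the HIF genes were called, Egln2 among them (0.35, edgeR adjusted p = 0.030). Among the genes tested and named, Arnt2, Plod2 (377 reads over all libraries) and Egln3 (381) rest on few reads, so counting error limits them. Slc16a3, Hk2 and Lox were low in saline mice, with 35 to 52, 62 to 80 and 55 to 92 reads per mouse.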
